A study of Homo sapiens with 17 samples.

Results

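The 34 genes described here make, recycle and phosphorylate purine and pyrimidine nucleotides. They were taken by symbol from a list of nucleotide synthesis and salvage genes, and all 34 were found among the 19141 genes of the count table. No cut on their values was applied, but the list was chosen with earlier results of these data known. They fall into 8 roles: synthesis of phosphoribosyl pyrophosphate (PRPP), the purine pathway up to inosine monophosphate (IMP), the branch from IMP to AMP and GMP, purine salvage, the pyrimidine pathway, pyrimidine and deoxynucleoside salvage, nucleotide kinases, and the folate enzymes that supply one-carbon units. Transcripts were measured by polyA RNA-seq in YB5 cells, a line made from the SW48 colon cancer line that carries a silenced GFP reporter. Cells were treated with 250 nM toyocamycin, an adenosine analog, or with its solvent DMSO, and both arms share the same line and reporter. The labels name 8 DMSO and 9 toyocamycin libraries. Each arm has 3 libraries for 72 h, 2 for 2 h and a single one for both 24 and 48 h, and the 10 h group holds 1 DMSO and 2 toyocamycin libraries. The study's text gives the last time as 96 h, where the labels, followed here throughout, have 72 h. Replicate 2 of each arm at 2 and 10 h came from batch 2 and the other 13 libraries from batch 1, so the effect at 72 h lies within batch 1.

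Library totals ran from 8735465 to 22121364 counted reads. Replicate 2 of the 10 h toyocamycin group was the shallowest, and it also had the highest share of reads on the 13 mitochondrially encoded genes (6.55%, against 0.917% to 3.47% in DMSO). The 100 most counted genes held 18.6% to 22.2% of reads in DMSO and 31.4% to 37.4% in toyocamycin from 10 h on. The colon markers EPCAM, CDH1, KRT8, KRT18 and CDX2 were well expressed in DMSO, VIL1 was low (at most 2.72 CPM), and KRT20 and CDX1 were at or near 0 there. Of 7 blood, endothelial or stromal markers, PTPRC, CD3E, CD68, PECAM1 and VIM were at most 1.03 CPM in DMSO, COL1A2 reached 3.05 and COL1A1 10.1 (median 1.70). In bulk RNA, fewer cells of a type and less of a transcript per cell cannot be told apart. The extraction protocol names biological triplicates but most groups hold fewer libraries, and the p-values measure the spread between these libraries only.

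Cells build purines step by step on PRPP, ending at IMP, which is then turned into AMP by adenylosuccinate synthetase and lyase or into GMP by IMP dehydrogenase and GMP synthetase. Pyrimidines are first made as a free ring by CAD and DHODH, joined to PRPP by UMPS, and aminated to CTP by CTP synthetases. Salvage enzymes reuse bases and nucleosides at lower cost, folate enzymes supply the formyl groups of the purine ring, and kinases raise all monophosphates to triphosphates. Growing tumour cells rely strongly on these pathways, and nucleoside analogs enter them by phosphorylation in place of the natural nucleosides.

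At 72 h, 21 of the 34 genes were downregulated, 12 were upregulated and 1, AK4, did not pass the threshold (edgeR quasi-likelihood test, Benjamini-Hochberg adjusted p under 0.1 over all genes tested). Among all 14491 genes tested, 41.9% were lower and 47% higher at this threshold. In a fit of the 10209 genes with at least 10 counts in every library, 46.3% were lower and 41.8% higher. The median log2 fold change of those genes was -0.12. The median log2 fold change of the 34 genes was -1.57, against 0.18 over all genes, whose quartiles were -1.58 and 2.49. A fold of 2 was passed downward by 18 of the 34 genes (32.7% of all genes) and upward by 6 (39.5% of all genes). Every toyocamycin library lay below every DMSO library in 21 of the 34 genes and above it in 13, against 41.3% and 46.2% of all genes. In DMSO, the 34 genes together held 0.329% to 0.399% of all counted reads, and in the toyocamycin libraries of 10 to 72 h they held 0.150% to 0.267%. The share of the 2 h toyocamycin libraries was 0.360% to 0.365%, within the DMSO range.

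The roles differed in direction. All 5 genes of the branch from IMP and all 3 folate genes fell at 72 h, with medians of -2.63 and -2.85. In the pyrimidine pathway 3 genes fell and 2 rose (median -2.80), in PRPP synthesis 1 fell and 1 rose (median -1.08), and in purine salvage 2 fell and 1 rose (median -0.70). In pyrimidine and deoxynucleoside salvage 2 fell and 2 rose (median -0.48). The purine pathway to IMP was split into 3 that rose and 3 that fell, with a median of 0.01, and the nucleotide kinases into 3 that rose and 2 that fell, with a median of 0.68. Taken as wider groups, the 13 purine synthesis genes (PRPP synthesis, the pathway to IMP and the branch) had 9 lower and 4 higher (median -1.77), and the 7 salvage genes had 4 lower and 3 higher (median -0.70). Differences between roles are given as counts and medians and were not tested.

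**Figure D1:**
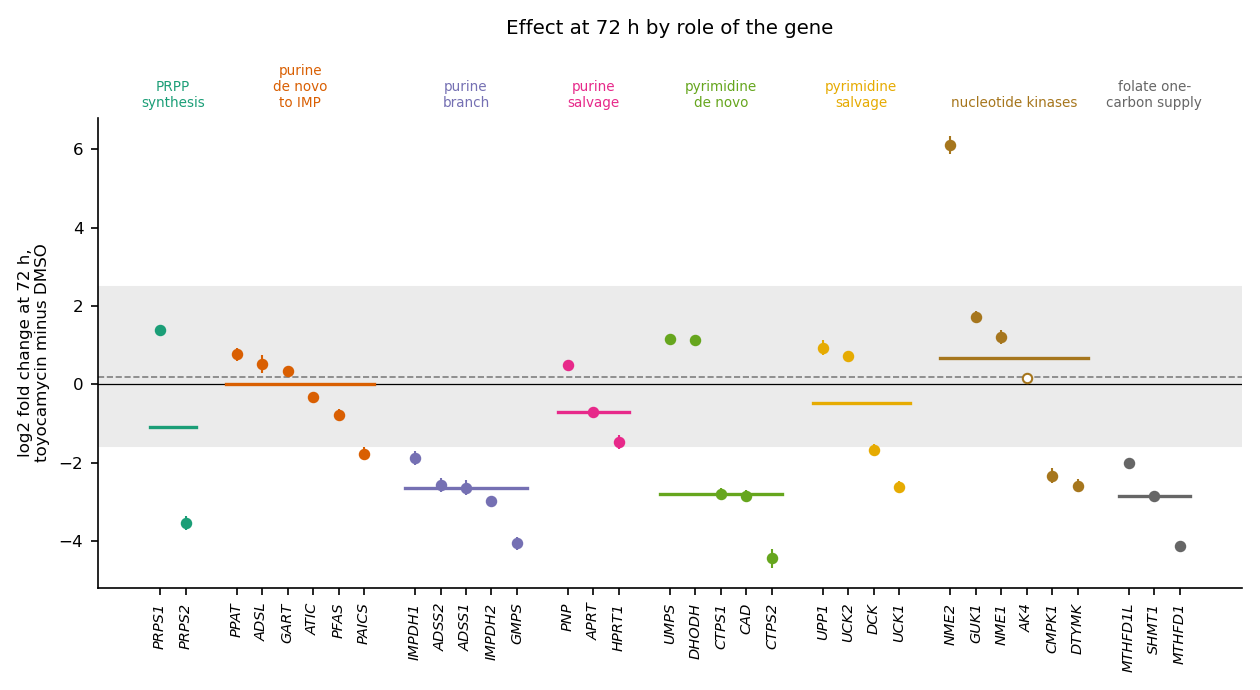
Log2 fold change at 72 h (toyocamycin minus DMSO, 3 libraries per arm) of each of the 34 genes, grouped by role. Points are the fitted values with their standard errors, the open point (AK4) did not pass the threshold, short lines are the medians of the roles, the grey band spans the quartiles of all genes tested from -1.58 to 2.49 and the dashed line is their median of 0.18. The 5 branch genes and the 3 folate genes all lie below the band, and NME2 at 6.11 lies above it.

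These directions rest on scaling by trimmed mean of M-values (TMM), and the scale of a library with so many changed genes is uncertain. Another scaling moved the median of all genes at 72 h from 0.18 to 0.50 (DESeq2's size factors), -0.42 (library size alone) or -0.89 (mitochondrially encoded genes). With DESeq2's size factors 13 of the 34 genes were higher and 20 lower, against 51.4% and 37.1% of all genes. With library size alone it was 6 and 23, against 39.0% and 50.4%, and with the mitochondrially encoded genes 1 and 22, against 29.0% and 50.8%. The medians of the branch, pyrimidine and folate roles stayed below -2.3 in each of these scalings, while that of the purine pathway to IMP turned to -0.59 and -1.04 with library size and mitochondrial scaling, and that of the kinases turned to -0.39 with mitochondrial scaling. Ratios between genes of the same library, given further on, do not depend on the scaling.

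PRPP synthetase makes the activated ribose phosphate that both pathways consume, and its 2 genes moved apart. PRPS2 (X chromosome, chrX:12791355-12824222, plus strand, GRCh38) measured 92.3, 94.5 and 121 CPM (read counts scaled to a common library size, here by TMM) in the DMSO libraries of 72 h and 10.8, 9.19 and 6.48 in the toyocamycin libraries. It was 11.6-fold lower, with a log2 fold change of -3.54 ± 0.19 (SE) and an adjusted p of 9.94e-11 (edgeR quasi-likelihood test). PRPS1 (chrX:107628428-107651993, plus strand) measured 35.6, 36.5 and 40.8 CPM in DMSO and 104, 95.7 and 94.3 CPM in toyocamycin, a rise of 1.38 ± 0.14 on the log2 scale (edgeR adjusted p = 1.46e-07). The libraries of the arms do not overlap for either gene, and the rise of PRPS1 no longer passed the threshold with mitochondrial scaling (0.32). Both courses can be followed through 10, 24 and 48 h: the log2 fold change of toyocamycin over DMSO for PRPS2 was 0.70, -0.62 and -2.51 in turn, and for PRPS1 -0.56, 0.94 and 0.96. The bases just before the annotated starts of both genes are shown because the genes share a function and differ in response. Matches to a GC box (GGGCGG) or a CCAAT box, on either strand, are in capitals. The sequences are RefSeq's for GRCh38.p14, plus strand, chrX:107628260-107628427 for PRPS1 and chrX:12791162-12791354 for PRPS2.
PRPS1: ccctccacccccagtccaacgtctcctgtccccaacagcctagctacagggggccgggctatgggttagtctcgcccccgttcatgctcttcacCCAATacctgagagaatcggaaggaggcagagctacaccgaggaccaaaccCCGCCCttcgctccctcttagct
PRPS2: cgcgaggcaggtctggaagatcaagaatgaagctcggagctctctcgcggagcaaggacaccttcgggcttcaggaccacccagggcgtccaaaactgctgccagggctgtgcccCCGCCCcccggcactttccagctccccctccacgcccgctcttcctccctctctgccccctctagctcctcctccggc
The stretch of PRPS1 holds 1 GC box, 1 CCAAT box and 8 CpG dinucleotides, and that of PRPS2 holds 1 GC box, no CCAAT box and 12 CpG dinucleotides. These matches are a description of the letters and were not linked to the response.

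In the purine pathway to IMP, the genes at the 2 ends of one short stretch of chromosome 4 moved in opposite directions. PAICS, the bifunctional enzyme of the middle steps (chr4:56435741-56464578, plus strand), measured 219, 238 and 276 CPM in DMSO and 80.0, 68.2 and 66.8 CPM in toyocamycin at 72 h, a log2 fold change of -1.77 ± 0.16 (edgeR adjusted p = 3.92e-08). PPAT, the amidotransferase of the committed step (chr4:56393362-56435615, minus strand), measured 47.3, 44.6 and 57.3 CPM in DMSO and 99.2, 73.3 and 80.7 CPM in toyocamycin, a log2 fold change of 0.76 ± 0.16 (edgeR adjusted p = 4.15e-04), which turned to -0.28 with mitochondrial scaling. Within each library the log2 ratio of PPAT to PAICS counts was -2.21, -2.41 and -2.27 in DMSO and 0.31, 0.10 and 0.27 in toyocamycin, so PPAT gained 2.53 log2 units, or 5.76-fold, on its neighbour at any scaling. This pair was chosen after its values were seen. The annotated starts of both genes are separated by the 125 bases that follow, printed because a single stretch lies upstream of both.
PPAT-PAICS: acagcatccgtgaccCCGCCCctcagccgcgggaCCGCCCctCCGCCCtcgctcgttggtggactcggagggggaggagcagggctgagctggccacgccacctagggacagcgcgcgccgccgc
It is chr4:56435616-56435740, given 5′ to 3′ on the minus strand, so that it reads toward PPAT and away from PAICS (RefSeq, GRCh38.p14). Capitals mark 3 GC boxes, read on the plus strand as GGGCGG, and the stretch holds 15 CpG dinucleotides, no CCAAT box and no CACGTG. The longer RefSeq window of PPAT does hold a CACGTG, outside this stretch and past the annotated start of PAICS.

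The other genes of this pathway changed less. PFAS, the amidotransferase of a middle step, measured 104, 97.6 and 77.4 CPM in DMSO and 48.5, 51.4 and 60.9 CPM in toyocamycin at 72 h, and fell by 0.79 on the log2 scale (SE 0.15, edgeR adjusted p = 1.69e-04). The trifunctional enzyme gene GART rose by 0.35 and fell instead with library size (-0.25) and mitochondrial scaling (-0.70). ATIC, which closes the purine ring, fell by 0.32 on the log2 scale, and with DESeq2's size factors its value was 0.00341. ADSL, the lyase of both the pathway and the AMP branch, had the lowest level of the 34 genes per kilobase of exon and rose by 0.52. That call was lost without replicate 2 of DMSO (adjusted p = 0.127) or without replicate 3 of toyocamycin (adjusted p = 0.139). ADSL is overlapped on the same strand by the annotated spans of SGSM3 and ENSG00000284431, and reads that overlap more than 1 gene are left out by the counter.

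The branch from IMP held the strongest loss of the purine genes. GMPS, which makes GMP, measured 113, 109 and 127 CPM in DMSO and 8.48, 5.72 and 6.75 CPM in toyocamycin at 72 h. Its level was 16.7-fold lower, with a log2 fold change of -4.06 ± 0.17 (edgeR adjusted p = 8.60e-12). The IMP dehydrogenase genes, whose enzyme limits the rate of GMP synthesis, were among the most abundant of the 34 in DMSO. IMPDH2 measured 409, 459.7 and 435 CPM in DMSO and 57, 53.2 and 54.1 CPM in toyocamycin, and fell 7.94-fold (log2 -2.99 ± 0.13, edgeR adjusted p = 1.00e-11). For IMPDH1 the values were 277, 265 and 213 CPM and 56.8, 71.3 and 77.4 CPM, a 3.67-fold fall (log2 -1.88 ± 0.17, edgeR adjusted p = 6.21e-08). Adenylosuccinate synthetase, on the way to AMP, is encoded by ADSS1, best known from muscle, and by the widely expressed ADSS2. ADSS1 measured 17.8, 21.6 and 18 CPM in DMSO and 3.45, 3.28 and 2.54 CPM in toyocamycin (log2 -2.63 ± 0.18, edgeR adjusted p = 1.66e-09). ADSS2 measured 64.4, 60.6 and 76 CPM and 13.4, 10.1 and 10.5 CPM (log2 -2.56 ± 0.18, edgeR adjusted p = 2.25e-09). In all 5 genes each toyocamycin library was below each DMSO library, and none of the 5 changed direction at 72 h under any scaling.

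Among the purine salvage genes, HPRT1, which reuses hypoxanthine and guanine, measured 54, 57.8 and 80.6 CPM in DMSO and 23.9, 22.6 and 22.8 CPM in toyocamycin at 72 h (log2 -1.47 ± 0.17, edgeR adjusted p = 6.95e-07). APRT, which reuses adenine, measured 116, 120.2 and 101 CPM and 71.7, 66.7 and 68.5 CPM (log2 -0.70 ± 0.13, edgeR adjusted p = 1.21e-04). Both had been higher at 10 h. PNP, the phosphorylase that frees bases from inosine and guanosine, went the other way: it was lower at 10 h (-1.07) and higher at 72 h (0.48), the latter turning to -0.12 with library size and -0.59 with mitochondrial scaling.

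In the pyrimidine pathway, the first enzyme and the last enzymes fell while the middle of the pathway rose. CAD, the multienzyme of the opening steps, measured 402, 395 and 349 CPM in DMSO and 46.1, 52.3 and 61.5 CPM in toyocamycin at 72 h, a 7.16-fold fall (log2 -2.84 ± 0.15, edgeR adjusted p = 1.07e-10). UMPS, which joins the ring to PRPP and yields UMP, measured 45.7, 47.1 and 53.7 CPM and 114, 107 and 104 CPM, a 2.22-fold rise (log2 1.15 ± 0.12, edgeR adjusted p = 3.72e-07). DHODH, the mitochondrial enzyme between them, rose by 1.12 on the log2 scale (SE 0.12, edgeR adjusted p = 5.11e-07). With mitochondrial scaling the rises of UMPS and DHODH were 0.09 and 0.0211 and did not pass the threshold. The log2 ratio of UMPS to CAD counts was -3.14, -3.07 and -2.70 in the DMSO libraries and 1.31, 1.03 and 0.76 in the toyocamycin libraries, a gain of 4.0 log2 units in a pair chosen after its values were seen.

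CTP synthetase, which turns UTP into CTP, showed the largest fall of the 34 genes in CTPS2. It measured 20.8, 20.4 and 26.1 CPM in DMSO and 1.08, 0.844 and 1.14 CPM in toyocamycin at 72 h, a 21.8-fold fall (log2 -4.45 ± 0.23, edgeR adjusted p = 7.76e-11), on 11, 9 and 13 reads in the toyocamycin libraries. CTPS1 measured 97.6, 99.7 and 111 CPM and 13.9, 15.6 and 14.7 CPM (log2 -2.80 ± 0.14, edgeR adjusted p = 6.32e-11). Both were already lower at 10 h, by 1.94 (CTPS1) and 1.01 (CTPS2) log2 units.

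Pyrimidine and deoxynucleoside salvage also held a diverging pair. The uridine-cytidine kinases UCK1 and UCK2 phosphorylate nucleosides taken up from outside. UCK1 measured 49.5, 50.2 and 44 CPM in DMSO and 6.01, 8.06 and 9.2 CPM in toyocamycin at 72 h (log2 -2.62 ± 0.16, edgeR adjusted p = 4.49e-10), whereas UCK2 measured 65.7, 64.9 and 66.1 CPM and 112, 103 and 108 CPM (log2 0.72 ± 0.12, edgeR adjusted p = 3.34e-05). UCK2 was higher still in the single toyocamycin libraries of 24 and 48 h, at 193 and 216 CPM against 46.3 and 76.8 CPM in DMSO, and its value at 72 h turned to -0.36 with mitochondrial scaling. DCK, the kinase of deoxycytidine, measured 40.6, 32.2 and 39.1 CPM in DMSO and 10.2, 11.2 and 13.6 CPM in toyocamycin at 72 h (log2 -1.67 ± 0.16, edgeR adjusted p = 6.27e-08), after values near that of DMSO at 24 and 48 h (0.24 and -0.39). UPP1, which splits uridine, rose by 0.93 at a low level and turned to -0.16 with mitochondrial scaling.

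The nucleotide kinases spanned the widest range. NME2, a nucleoside diphosphate kinase gene (chr17:51165435-51171744, plus strand), had 15, 11 and 10 reads in the DMSO libraries of 72 h and 389, 368 and 478 reads in the toyocamycin libraries, or 0.733, 0.504 and 0.422 CPM and 38.3, 34.5 and 41.9 CPM. The rise was 69.1-fold (log2 6.11 ± 0.23, edgeR adjusted p = 3.26e-12), and NME2 was the only one of the 12 rising genes that still passed the threshold with mitochondrial scaling. Its neighbour NME1 (chr17:51153559-51162428, plus strand) measured 30.1, 28.7 and 27.4 CPM and 64.6, 63.8 and 70.8 CPM, a rise of 1.21 ± 0.18 (edgeR adjusted p = 1.42e-05). An annotated readthrough gene, NME1-NME2, covers both genes on the same strand. STAR's counter keeps only reads that overlap a single gene, so the levels of NME1 and NME2 are those of the reads it could assign to one of them. DTYMK, the thymidylate kinase, measured 42.9, 47.9 and 38.1 CPM in DMSO and 6.8, 7.69 and 6.92 CPM in toyocamycin (log2 -2.59 ± 0.16, edgeR adjusted p = 5.45e-10).

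Of the other kinases, CMPK1, which phosphorylates UMP and CMP, fell by 2.33 and GUK1, which phosphorylates GMP, rose by 1.71 on the log2 scale. GUK1 had the highest CPM of the 34 genes in toyocamycin at 72 h, at 548, 622 and 586 CPM against 190.0, 191 and 154 CPM in DMSO. AK4, a mitochondrial adenylate kinase gene, measured 63.4, 78.8 and 79.3 CPM in DMSO and 81, 82.9 and 82.6 CPM in toyocamycin (0.15 ± 0.14, edgeR adjusted p = 0.295). It passed as higher with DESeq2's size factors (0.48), had a value below 0 with library size (-0.45) and passed as lower with mitochondrial scaling (-0.90). At 24 and 48 h its toyocamycin libraries stood at 145 and 145 CPM and the DMSO libraries at 26.6 and 47.3 CPM.

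All 3 folate genes fell at 72 h, and their values lay below 0 at 24 and 48 h as well. MTHFD1, the cytosolic trifunctional enzyme that makes formyl-tetrahydrofolate, measured 229, 235 and 265 CPM in DMSO and 14, 14 and 13.6 CPM in toyocamycin at 72 h, a 17.6-fold fall (log2 -4.13 ± 0.14, edgeR adjusted p = 1.31e-12). SHMT1, the cytosolic serine hydroxymethyltransferase, measured 74.5, 70.5 and 72.5 CPM and 10.3, 8.81 and 11 CPM (log2 -2.85 ± 0.14, edgeR adjusted p = 3.20e-11). MTHFD1L, which releases formate in mitochondria, fell by 2.02. Their log2 fold changes at 24 h were -1.08, -2.55 and -0.67 in that order, and at 48 h -3.06, -3.06 and -1.56. MTHFD1 stood at 268 and 324 CPM in the toyocamycin libraries of 10 h and 229.5 CPM in the DMSO library, and did not pass the threshold there.

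**Figure D2:**
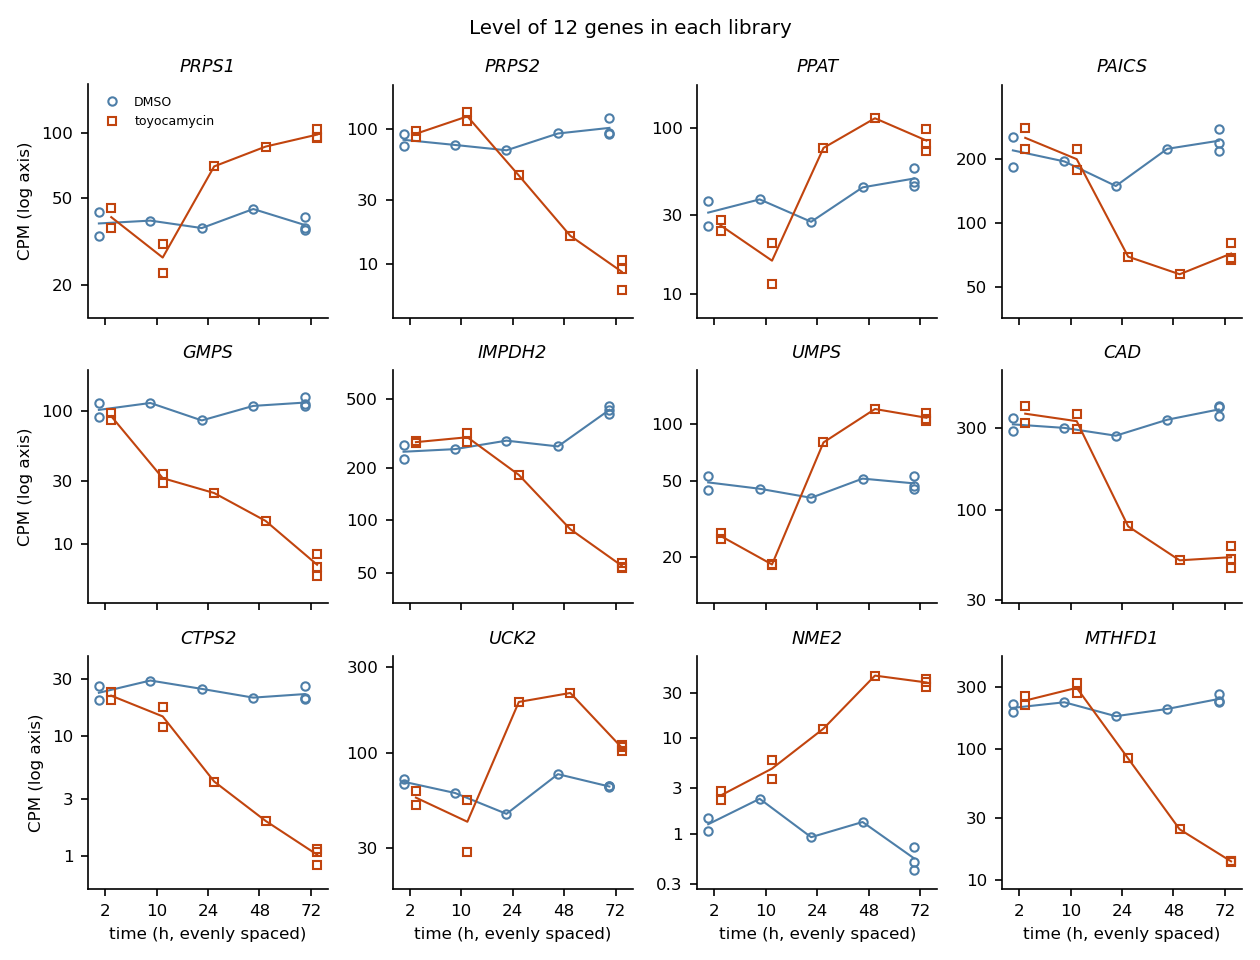
CPM (TMM scale, log axis) of 12 of the genes in each library at the 5 times, with circles for DMSO and squares for toyocamycin. Lines join the means of each arm, the times are evenly spaced, and 24 and 48 h have 1 library per arm. PRPS2, GMPS, IMPDH2, CAD, CTPS2 and MTHFD1 end below DMSO, PRPS1, PPAT, UMPS, UCK2 and NME2 end above it, and PAICS falls between 10 and 24 h.

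At 2 h UMPS was lower and NME2 higher. The other 32 of the 34 genes did not pass the threshold, and 31 in all had an absolute log2 fold change under 0.5. Over all genes 8.42% were lower and 0.518% higher, and the median log2 fold change was 0.16 for the 34 genes and 0.02 for all genes. UMPS measured 45.2 and 53.7 CPM in the DMSO libraries and 24.9 and 26.7 CPM in the toyocamycin libraries, a log2 fold change of -0.94 ± 0.15 (edgeR adjusted p = 0.00116). Both toyocamycin libraries lay below both DMSO libraries, within each batch as well, and the call held with any of the 4 libraries left out. NME2 had 35 and 21 reads in DMSO and 68 and 42 reads in toyocamycin (0.99 ± 0.28, edgeR adjusted p = 0.0422), and its call was lost without replicate 2 of DMSO (adjusted p = 0.243) or replicate 1 of toyocamycin (adjusted p = 0.269). With the replicate number, which at 2 h is the batch, as a block, 4 genes were higher (NME2, NME1, ADSS1 and HPRT1) and 3 lower (UMPS, PNP and UCK2), against 8.72% higher and 18.7% lower among the 11848 genes that fit tested. Neither gene passed the threshold with mitochondrial scaling, where the log2 fold change was -1.04 for UMPS and 0.84 for NME2, or with a minimum fold of 1.5. At an unadjusted p under 0.05, 3 genes were higher and 2 lower, against 2.39% and 12.6% of all genes. The arms did not overlap in 11 genes that were higher and 3 that were lower, against 16.6% and 20.3% of all genes.

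At 10 h, 14 genes were lower, 7 were higher and 13 did not pass the threshold, against 24.4% lower and 20.4% higher among the 16521 genes tested. The median was -0.30 for the 34 genes and 0.42 for all genes. The all-gene median depends on genes with low counts. In a fit of the 10112 genes with at least 10 counts in every library it was -0.08. In that fit 34.4% of genes were lower and 28.7% higher. Both toyocamycin libraries lay below the DMSO library in 19 genes and above it in 10, against 34.9% and 36.3% of all genes. The comparison rests on 1 DMSO library, so the standard errors and p-values at 10 h use a spread taken mostly from other times. Within batch 2 alone, with 1 library per arm and the spread taken from the other groups, 16 were lower and 7 higher, against 27.0% and 39.1% of all genes. The lower genes were led by CTPS1 (-1.94 ± 0.21, edgeR adjusted p = 6.85e-06), GMPS (-1.88 ± 0.24, edgeR adjusted p = 2.05e-05) and ADSS2 (-1.79 ± 0.26, edgeR adjusted p = 8.25e-05). UMPS measured 18.3 and 18.2 CPM in toyocamycin and 45.8 CPM in DMSO. Among the higher genes APRT measured 189 and 173 CPM in toyocamycin against 69.6 CPM in DMSO (1.38 ± 0.24, edgeR adjusted p = 3.29e-04). GUK1 measured 399 and 174 CPM against 98.4 CPM, so its toyocamycin libraries lay far apart. By role, the medians were lowest in the pyrimidine pathway (-1.01) and the purine pathway to IMP (-0.69), and highest in purine salvage (0.81) and the kinases (0.64), of which the last pair turned to -0.32 and -0.47 with mitochondrial scaling. That scaling left 17 genes lower and no call of a higher one at 10 h, against 32.5% and 3.04% of all genes.

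Early and late directions were opposite in part of the genes. Of the genes called at both 10 and 72 h, 8 were lower at both times, 3 were higher at both, and 10 had opposite calls. Such joint calls were not counted over all genes, of which 24.4% were lower and 20.4% higher at 10 h. At 72 h 41.9% of all genes were lower and 47% higher. PRPS1, PPAT, GART, PNP, DHODH and UMPS were lower at 10 h and higher at 72 h. PRPS2, ADSS1, HPRT1 and APRT were higher at 10 h and lower at 72 h. Of these 4, all but APRT had values below 0 at 10 h with mitochondrial scaling (-0.47 for PRPS2, -0.12 for ADSS1 and -0.32 for HPRT1). With that scaling none of the 6 genes of the first set was called higher at 72 h, and none of the 34 had opposite calls at these times. The calls of PRPS1 and PRPS2 at 10 h were lost without replicate 2 of toyocamycin (edgeR adjusted p = 0.252 for PRPS1 and 0.1001 for PRPS2). PPAT measured 20.2 and 11.5 CPM in the toyocamycin libraries of 10 h, 76.2 CPM at 24 h and 115 CPM at 48 h, against 37.2, 27.2 and 44 CPM in the DMSO libraries of these times. DHODH measured 14.1 and 10.3, then 64.6 and 102 CPM in toyocamycin against 21, 21.6 and 40.7 CPM in DMSO.

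At 24 and 48 h each arm had 1 library, so values are compared with no test. At 24 h 13 of the 34 genes were past a fold of 2 lower and 8 past a fold of 2 higher, against 27.8% and 29.7% of all genes. At 48 h the counts were 18 lower and 7 higher, against 29.9% and 38.1% of all genes. From 24 to 72 h the median of the 34 genes went from -0.55 through -1.24 to -1.57, while that of all genes went from 0 through 0.16 to 0.18. Among the genes with at least 10 counts in every library, that median was -0.09, -0.05 and -0.12 in turn. Of the 21 genes lower at 72 h, 18 had values below 0 at both 24 and 48 h, the others being HPRT1, APRT and DCK. In 16 of the 21 each of the values at 24, 48 and 72 h was below the one before. Of the 12 genes higher at 72 h, 10 had values above 0 at 24 and 48 h, the others being GART and UPP1. How often such courses occur among all genes called at 72 h was not counted. Some values did not go on rising: UCK2 went from 2.06 through 1.49 to 0.72 and AK4 from 2.44 through 1.61 to 0.15.

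**Figure D3:**
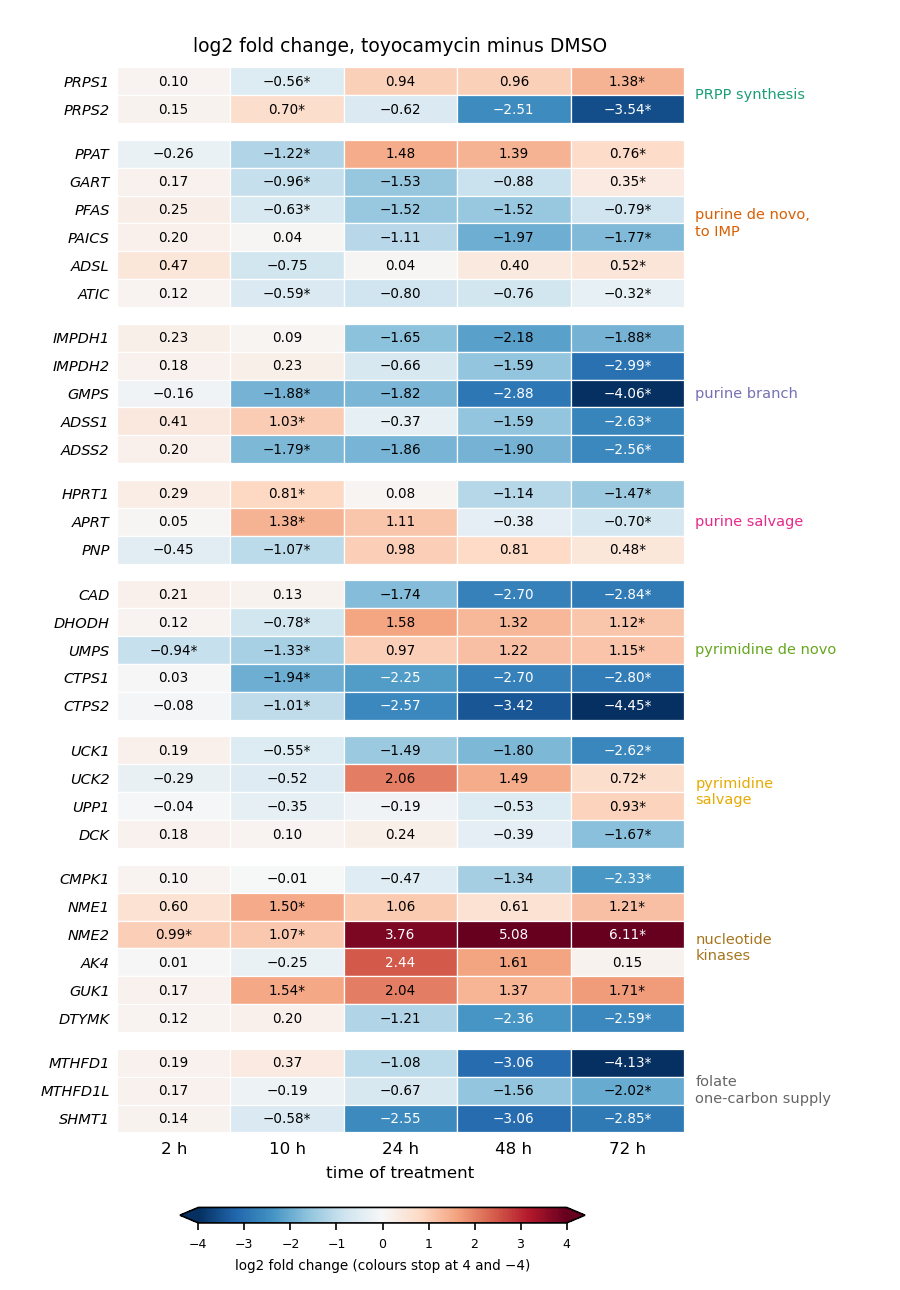
Log2 fold change (toyocamycin minus DMSO) of the 34 genes at each time, in rows by role, with red for higher and blue for lower and colours that stop at 4 and -4. Asterisks mark an adjusted p under 0.1 at 2, 10 and 72 h, and 24 and 48 h carry no test. The column of 2 h is pale, with UMPS and NME2 marked, and the rows of the purine branch and of the folate genes are blue at 24, 48 and 72 h.

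The difference between the effects of 72 and 2 h was tested in the same fit. It passed the threshold in 31 of the 34 genes, 21 in the lower and 10 in the higher direction, against 38.1% and 38% of all genes. GART, ADSL and AK4 did not pass. UMPS, called in opposite directions at these times, went from -0.94 ± 0.15 at 2 h to 1.15 ± 0.12 at 72 h, a difference of 2.09 ± 0.20 (edgeR adjusted p = 1.56e-07). For MTHFD1 the difference was -4.32 ± 0.20 and for NME2 5.12 ± 0.38.

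Some of the 34 genes also changed in DMSO alone between 2 and 72 h. PPAT, PFAS, ATIC, IMPDH2, DHODH, CTPS1, AK4 and MTHFD1L were higher at 72 h (10.2% of all genes) and NME2 was lower (11.4% of all genes). The largest of these rises were 0.98 ± 0.16 for AK4, 0.85 ± 0.13 for MTHFD1L and 0.80 ± 0.14 for IMPDH2 on the log2 scale. NME2 fell by 1.20 (SE 0.31) in DMSO. With batch as a term, 9 of the 34 genes passed (6.60% of all genes higher and 7.47% lower), and with mitochondrial scaling 2 (3.89% higher and 0.248% lower).

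Levels of different genes were compared as CPM per kilobase of exon in the 7 DMSO libraries of 2, 24, 48 and 72 h. IMPDH1 had the highest median, at 78.1 (58.3 to 105), followed by APRT at 59.6 (45.5 to 66.9), IMPDH2 at 56.4 (44 to 89.7) and CAD at 40.4 (31.9 to 47.7). The ranges of each of these overlapped that of its neighbour in the order. At the lower end stood CTPS2 at 3.79 (3.61 to 4.72), ADSS1 at 3.09 (2.75 to 3.74), UPP1 at 1.94 (1.74 to 2.87), NME2 at 0.369 (0.169 to 0.581) and ADSL at 0.254 (0.216 to 0.410). Neighbours in this lower part of the order overlapped as well, except UPP1 and NME2. Other annotated genes lie over NME2 and ADSL on the same strand, and reads that overlap more than 1 gene are left out. The transcript levels of NME2 and ADSL could therefore be higher than these values. PRPS2 exceeded PRPS1 in DMSO, at 33.4 (25.4 to 43.8) against 10.8 (9.88 to 13.1), with no overlap between them.

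Ratios of paralog counts within a library show shifts that no scaling can move. The log2 ratio of PRPS1 to PRPS2 was -1.37, -1.37 and -1.56 in the DMSO libraries of 72 h and 3.26, 3.37 and 3.85 in the toyocamycin libraries. The means were -1.44 ± 0.11 and 3.50 ± 0.31 (SD, n = 3 each), a 30.6-fold shift from PRPS2 toward PRPS1. UCK1 to UCK2 went from -0.41, -0.37 and -0.59 to -4.21, -3.67 and -3.55, a 10.2-fold shift toward UCK2. NME1 to NME2 shifted 29.4-fold toward NME2, CTPS1 to CTPS2 shifted 3.02-fold toward CTPS1, and IMPDH1 to IMPDH2 shifted 2.16-fold toward IMPDH1. The ratio of NME1 to NME2 rests on the reads assigned to only 1 gene, since the readthrough gene NME1-NME2 covers both. In IMPDH1 to IMPDH2 the single DMSO library of 48 h, at 0.42, lay within the range of the toyocamycin libraries of 72 h. For these 5 pairs the arms did not overlap at 72 h, and the exact permutation test (two-sided) gave p = 0.1 for each, the smallest it can give with 3 libraries per arm, or 0.12 after Benjamini-Hochberg adjustment over the 6 pairs. ADSS1 to ADSS2 differed by -0.06 log2 units at 72 h (exact permutation p = 0.8), with overlapping arms. At 10 h that ratio stood apart, at 1.28 and 1.02 in the toyocamycin libraries and -1.67 in the DMSO library.

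**Figure D4:**
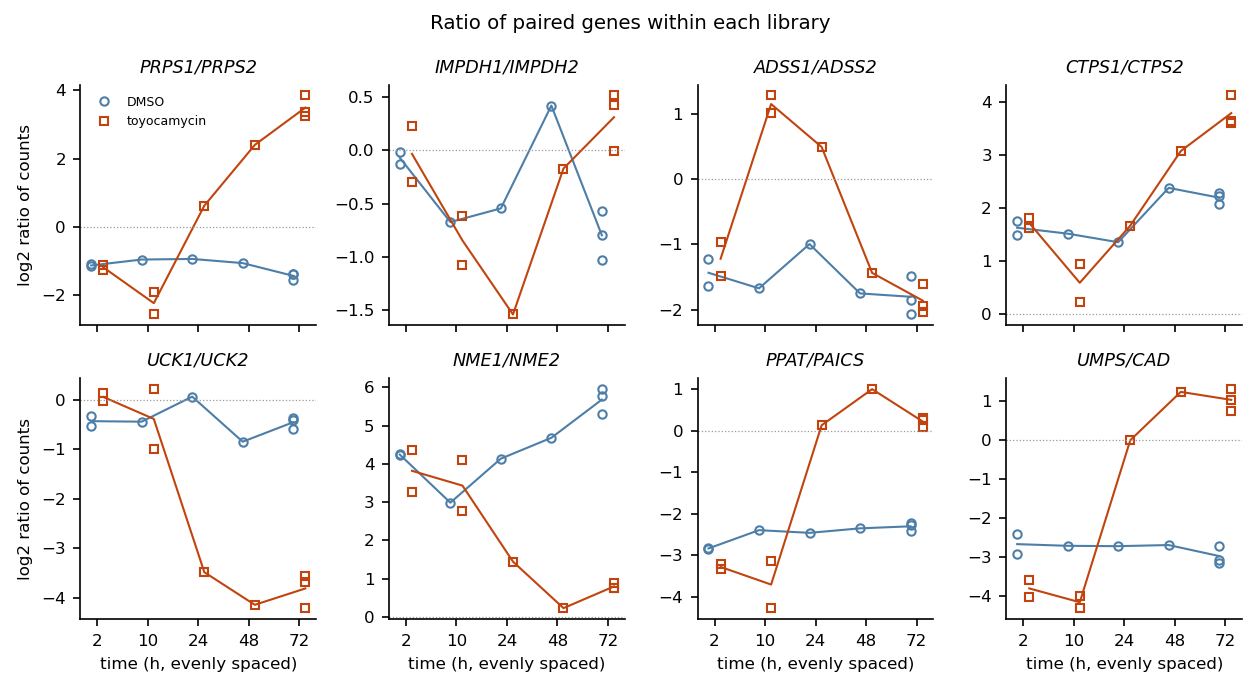
Log2 ratio of the counts of 2 genes within each library for the 6 paralog pairs and for PPAT/PAICS and UMPS/CAD, with circles for DMSO and squares for toyocamycin at 5 evenly spaced times. Lines join the means of each arm, and 24 and 48 h have 1 library per arm. PRPS1/PRPS2 stays between -1.56 and -0.94 in DMSO and climbs to a mean of 3.50 in toyocamycin at 72 h, UCK1/UCK2 falls to a mean of -3.81, and ADSS1/ADSS2 is apart from DMSO at 10 and 24 h and back within its range at 72 h.

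The promoters of the 34 genes were also described by their letters. RefSeq windows of 300 bases were at hand for 32 of them, and 21 of these windows hold the start of the gene in the annotation used here. The other 11, PAICS and PNP among them, lie at another start and were left out of the counts, as were ADSL and IMPDH2, which had no window. Both strands were searched for 4 motifs, whose matches may share bases at their ends. A GC box (GGGCGG) was in 18 of the 21 windows against 45% of the 35116 promoters in the table, in 11 of 12 genes lower at 72 h and in 6 of 8 higher. The 35116 promoters were not restricted to windows that hold an annotated start, so the sets are not alike. The CACGTG hexamer, the canonical E-box of MYC and MAX, was in 5 of 21 against 7.26% of all promoters, in 1 of 12 lower and 3 of 8 higher genes. This split depends on the windows left out: those of DCK, MTHFD1 and MTHFD1L, all lower at 72 h, also hold the hexamer. No left-out window of a higher gene holds it. A CCAAT box was in 7 of 21 against 34.6% of all, and TATAAA was in 0 of 21 against 11.5% of all. Counts this small were not compared by a test. A match is a description of the window and not a bound site, and no factor was measured here.

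A further 52 genes of the same pathways were counted beside the 34, covering PRPP synthetase-associated proteins, purine interconversion, ribonucleotide reductase and deoxynucleotides, pyrimidine breakdown, other nucleotide kinases and other folate enzymes. At 72 h 47 of them were tested, and 29 were lower, 12 higher and 6 past no threshold, with a median of -0.89. Among all genes tested 41.9% were lower and 47% higher, with a median of 0.18. At 2 h none of the 47 passed the threshold in edgeR, against 8.42% lower and 0.518% higher among all genes. There 2 of the 47 were higher and 0 lower at an unadjusted p under 0.05, against 2.39% and 12.6% of all genes. At 10 h 10 of 52 were lower and 14 higher, against 24.4% and 20.4% of all genes. The largest falls at 72 h were in CDA, the cytidine deaminase (-5.83 ± 0.41), and GMPR, which returns GMP to IMP (-5.05 ± 0.34). AMPD1, an AMP deaminase gene, had 0 reads in the 3 DMSO libraries and 24 in the 3 toyocamycin libraries, and was at least 16.4-fold higher against a floor of 3 reads over the group. The ribonucleotide reductase and deoxynucleotide genes had 9 of 11 lower, and their 2 higher genes were RRM2B, the reductase subunit induced by p53 (3.10 ± 0.20), and DGUOK, the mitochondrial deoxyguanosine kinase (3.07 ± 0.14). The other folate genes had 7 lower and 3 higher, the latter being MTHFD2L (2.38), MTHFS (4.53) and the mitochondrial ALDH1L2 (3.07). Other higher genes included the kinases AK6 (2.15), NME6 (0.81) and AK5, the phosphorylase TYMP (2.62) and the deaminase AMPD3 (2.01). AK5 had 2 reads in DMSO and 24 in toyocamycin at 72 h, a ratio of 24.6 (95% counting interval 6.10 to 215).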

How the data were processed

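The authors aligned the reads to GRCh38 (annotation release 100) with STAR 2.7.5a and deposited raw read counts per gene from its gene counter, without normalization. The strand setting is not given in the sources used here, and GART, PFAS, UCK1, UCK2, MTHFD1 and SHMT1 overlap a counted gene on the other strand and DCK one on the same strand, so their counts could hold reads of those genes. 1 column of the table matched no sample and was not used, nor was the authors' table of fold changes and p-values for the 5 times.

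Genes were filtered with filterByExpr, libraries scaled with TMM, and contrasts tested with edgeR 4.0.16 in R 4.3.3 (quasi-likelihood test in its legacy form, Benjamini-Hochberg adjusted p under 0.1). A fit of 14 libraries (14491 genes) gave 2, 24, 48 and 72 h, and a fit of all 17 (16521 genes) gave 10 h, whose CPM come from that fit. Python 3.11.15 with pandas 2.3.3, scipy 1.17.1 and matplotlib 3.10.9 was used for the ratios (prior count 0.5) and plots. Of the 19141 genes, 19080 were matched to a symbol, and positions are from GENCODE for the same build. The fits were tested on simulated data in which few genes changed, as many up as down. That test did not cover the scaling of libraries with as many changed genes as here. No replicate pair of libraries was identical or agreed within sampling noise. Counting intervals and the floor of 3 counts cover counting error only.

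Full values were given for genes called at 2 h, for the 2 genes per role with the largest change at 72 h among those called with separate arms, and for the paralog pairs. PPAT, DHODH, GUK1, AK4 and other members given beyond counts were chosen after their values were seen. The 34 members, the lists and the tests were chosen with earlier results of these data known. Alternatives were other scalings, DESeq2 1.42.0, edgeR 4's form of the test, other filters, library sets and thresholds, batch as a term, the replicate number as a block, and leaving out single libraries. At 2 h the replicate numbers mark the batches in the labels, and same-numbered libraries deviated together (correlation 0.62).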

Additional observations from a re-analysis of the deposited data

Results flagged for a closer look

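The effect of toyocamycin differed between 72 and 2 h in 31 of the 34 genes by the test of the difference itself (edgeR quasi-likelihood test), as it did in 38% of all genes in the higher and 38.1% in the lower direction. UMPS was the gene with calls in opposite directions at these times, and its difference was 2.09 on the log2 scale. Groups of 3 or fewer libraries were not examined for single libraries far from the rest.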

How the results depend on the processing

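At 2 h, 1 gene was higher and 1 lower. These numbers became 0 and 0 with mitochondrial scaling or a minimum fold of 1.5. They became 4 and 3 with the replicate block, and 2 were lower with library size alone or the DESeq2 Wald test. Of all genes, 9.71% were lower with library size alone, 8.73% with the Wald test and 2.53% with the minimum fold. With the replicate block 18.7% of the genes tested were lower and 8.72% higher. Leaving out single libraries gave 0 to 2 higher and 1 lower. At 10 h (7 higher and 14 lower), 4 were higher with library size and 0 with mitochondrial scaling, and 9 were lower with DESeq2's size factors or the libraries of 2 and 10 h alone and 8 with a minimum fold of 1.5. The shares of all genes higher were 11.3% with library size and 3.04% with mitochondrial scaling. Those lower were 20.4% with DESeq2's size factors, 21.9% with the libraries of 2 and 10 h and 16.9% with the minimum fold. At 72 h (12 higher and 21 lower), 6 were higher with library size and 1 with mitochondrial scaling, and the other alternatives gave 9 to 13 higher and 19 to 23 lower. Of all genes, 39.0% were higher with library size and 29.0% with mitochondrial scaling. In the other alternatives 41.8% to 51.4% of the genes tested were higher and 33.9% to 46.3% lower. Past a fold of 2 at 24 h (8 higher and 13 lower), 4 were higher and 20 lower with library size and 1 and 28 with mitochondrial scaling. At 48 h (7 higher) it was 2 and 1 with these scalings. Shares of all genes past a fold of 2 were not counted under these scalings. The number of genes changed in DMSO fell from 9 to 2 with mitochondrial scaling, which left 3.89% of all genes higher and 0.248% lower. The cause of these changes was not tested.

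Reversed values at 72 h with library size were -0.25 for GART, -0.0839 for ADSL, -0.12 for PNP and -0.45 for AK4. With mitochondrial scaling they were -0.28 for PPAT, -0.70 for GART, -0.55 for ADSL, -0.59 for PNP, -0.36 for UCK2, -0.16 for UPP1 and -0.90 for AK4. ATIC was 0.0034 with DESeq2's size factors. At 10 h, mitochondrial scaling reversed PRPS2 (-0.47), ADSS1 (-0.12), HPRT1 (-0.32) and NME2 (-0.0211). The log2 shift of ADSS1/ADSS2 at 72 h (-0.06) turned to 0.10 without DMSO replicate 2 and 0.026 without toyocamycin replicate 3, in a range of -0.19 to 0.10 over the 6 libraries left out in turn.

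The replicate numbers of 72 h do not mark a batch and their libraries did not deviate together (correlations -0.26, 0.16 and -0.23). With them as a block 13 genes were higher and 20 lower, against 45.1% and 43.9% of the 13113 genes that fit tested. No paired analysis was possible at 10 h because the arms share 1 number, and DMSO at 10 h could not be left out. At 10 h, the calls of UCK1 and NME2 were lost without toyocamycin replicate 1 and those of PRPS1, PRPS2 and SHMT1 without replicate 2, while UCK2, UPP1, AK4 and MTHFD1 gained a call without replicate 1 and ADSL without replicate 2. NME1 gained a call at 2 h without DMSO or toyocamycin replicate 1. Of the genes not called, 18 of 32 at 2 h and 9 of 13 at 10 h changed sign in some alternative. At this depth NME2 and ADSL in DMSO and CTPS2 in toyocamycin rest on few reads. With 1 library per arm at 24 and 48 h, the spread there is not known.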
